A study of Mus musculus with 8 samples.

Results

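Chodl is the gene of chondrolectin, and it had the lowest fold change of all tested genes of at least 1 mean CPM when mouse dorsal root ganglia (DRG) that overexpress Dach1 were compared with control DRG. It was chosen by that rule, and it is 1 gene of the 15518 tested genes of at least 1 mean CPM and of the 17721 tested in all. CPM is the count of a gene per 1000000 counts of its library, with library totals scaled by the TMM method. Because this contrast chose Chodl, its own levels are given as a description and without a test. DRG were compared at E18.5 between AD1 OE (AdvillinCre/+;Rosa26Dach1/+, 4 libraries) and Control (Advillin+/+;Rosa26Dach1/+, 4 libraries). All embryos thus carried the Rosa26 allele in which a stop cassette between loxP sites precedes Dach1 and EGFP, on a mixed C57Bl/6J and CD1 background, and AD1 OE embryos alone carried the Cre recombinase at the Advillin locus, which is active in sensory neurons. The model adds Dach1 late, once its early loss from most sensory neurons has run its course, and animals of this genotype do not survive the perinatal period. RNA was taken from whole ganglia with their neurons and glia, and the labels do not say whether each library came from a separate embryo, so p-values measure only the spread between these libraries.

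Chondrolectin is a single-pass membrane protein with a C-type lectin domain, a fold that in many of its relatives binds sugars. It occurs in muscle and testis among other tissues, and it is known above all from the spinal cord, where it marks fast motor neurons and has been tied to the growth of motor axons. In DRG it belongs to genes of large-diameter sensory neurons, the class that includes proprioceptors and the A fibre low-threshold mechanoreceptors (A-LTMR).

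The gene carries the identifier ENSMUSG00000022860 and lies on the plus strand of chromosome 16. In GENCODE M21, an annotation of the older GRCm38 build and not of the GRCm39 build used for counting, it spans chr16:78930948-78951733 with 5 transcripts and 5491 exonic bases, and 0 other genes overlap it, so its counts are not shared with an annotated neighbour there. The 250 bases before its RefSeq start (GRCm38.p6, chr16:78930698-78930947, plus strand, 5′ to 3′) are shown as the promoter of the gene, with the motif TATATAA in capitals.
Chodl promoter: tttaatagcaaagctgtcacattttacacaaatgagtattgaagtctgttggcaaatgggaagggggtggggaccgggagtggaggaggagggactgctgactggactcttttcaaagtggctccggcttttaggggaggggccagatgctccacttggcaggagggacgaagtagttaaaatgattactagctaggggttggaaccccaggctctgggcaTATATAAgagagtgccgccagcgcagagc
The motif begins 29 bases before the start and occurs 1 time on either strand. It was picked after the sequence had been read, and 998 of 32851 RefSeq promoters of this length (3.04%) hold it on either strand. Among the tested genes with an entry, 206 of 12570 (1.64%) hold it, as do 5 of 240 of those that were lower in AD1 OE (2.08%) and 0 of 8 of the 10 next steepest decreases. The promoter has a GC content of 52.0% and 5 CpG sites, against medians of 52.4% and 6 over all these promoters.

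The 8 libraries held 22339059 to 44025625 counts assigned to genes, and TMM factors ran from 0.9872 to 1.0078. Dach1, the gene of the transgene, had 102.2, 91.5, 98.3 and 91.6 CPM in AD1 OE replicates 1 to 4 and 30.2 to 33.7 CPM in Control, a log2 fold change of 1.56 (edgeR quasi-likelihood test, adjusted p = 1.8e-08). Avil, in which Cre was placed, had 449.6 to 478.3 CPM in AD1 OE and 840.4 to 919.1 CPM in Control (log2 fold change -0.94, adjusted p = 2e-07). Both genes followed the labels in 8 of 8 libraries. Xist and 4 Y-linked genes identified AD1 OE replicates 1, 2 and 4 and Control replicate 4 as male and the other 4 libraries as female, so sex was unequal between the groups (1 female of 4 in AD1 OE, 3 females of 4 in Control). A gene passed the test where its adjusted p was under 0.005 and its log2 fold change exceeded 0.25 in size, as it did for 455 of 17721 genes (2.57%), with 316 lower (1.78%) and 139 higher (0.784%) in AD1 OE.

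Chodl was abundant in Control and fell to a small remainder in AD1 OE. Its counts in Control replicates 1 to 4 were 874, 1465, 1089 and 1396, which is 39.3, 45.6, 42.8 and 39.4 CPM. In AD1 OE replicates 1 to 4 they were 142, 64, 145 and 85, which is 3.21, 2.85, 5.55 and 3.06 CPM. The groups lay far apart, since the lowest Control library exceeded the highest AD1 OE library 7.09-fold. Over all 17721 tested genes, 7.26% were lower in every AD1 OE library than in any Control library, and nothing is read from Chodl being one of them.

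Control averaged 41.8 CPM and AD1 OE 3.67 CPM of Chodl (n = 4 each), a ratio of 11.4. The fitted log2 fold change was -3.52 (SE 0.16). As a percentage of the Control mean, AD1 OE replicates 1 to 4 retained 7.68%, 6.82%, 13.3% and 7.32% of the Chodl level. Even the lowest of these lay well above the floor of 3 counts, which corresponds to 0.134 CPM in AD1 OE replicate 2, so the transcript was still detected in each AD1 OE library. In bulk RNA, fewer cells that transcribe Chodl and less Chodl RNA per cell cannot be told apart.

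**Figure D1:**
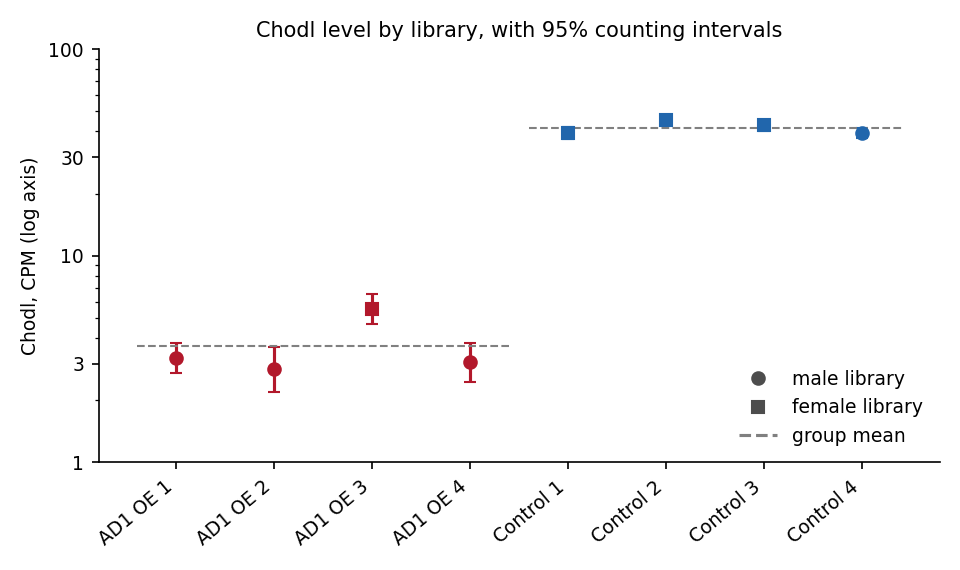
Chodl level in CPM on a log axis in each of the 8 libraries, with exact Poisson intervals of 95%; circles are male and squares female libraries, and dashed lines are group means. AD1 OE lay between 2.85 and 5.55 CPM, with replicate 3 above the other 3, and Control between 39.3 and 45.6 CPM.

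Within Control, Chodl was even, with a coefficient of variation (CV) of 7.23% where counting alone gives 2.61% to 3.38%. Within AD1 OE the CV was 34.4%, where counting alone gives 8.30% to 12.5%. On the log2 scale the SD was 0.43 in AD1 OE and 0.10 in Control. The wider spread of AD1 OE came mainly from 1 library, since replicates 1, 2 and 4 lay within 3.04 ± 0.18 CPM (SD, n = 3).

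AD1 OE replicate 3 held 1.82 times the mean level of the other 3 AD1 OE libraries (interval 1.47 to 2.21 from exact Poisson limits of the counts). The Poisson interval of replicate 3, 4.68 to 6.53 CPM, did not meet those of replicates 1 (2.7 to 3.78 CPM), 2 (2.2 to 3.64 CPM) and 4 (2.44 to 3.78 CPM). These intervals cover counting error only, since reads carried no molecular identifiers. Without replicate 3 the ratio of Control to AD1 OE was 13.7, and for replicate 3 alone it was 7.54. The fitted log2 fold change was -3.76 without this library, and it lay between -3.54 and -3.43 when any other library was left out.

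AD1 OE replicate 3 was also the sole female library of its group. Among females, Chodl was 7.68 times as high in the 3 Control libraries as in this library, and among males it was 13.0 times as high in the 1 Control library as in the 3 AD1 OE libraries. With 1 library in an arm on each side, these values have no replicate check. In Control the male library, at 39.4 CPM, lay within the range of the 3 females, 39.3 to 45.6 CPM. With sex as a term in the fit the log2 fold change of Chodl was -3.37. Within AD1 OE, the female sex and this library cannot be told apart.

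The same library stood apart in skeletal muscle transcripts. The summed level of 8 skeletal muscle genes (Ckm, Acta1, Actc1, Myh3, Myh8, Mylpf, Tnnt3 and Myog) was 186.2, 234.8, 722.7 and 130.9 CPM in AD1 OE replicates 1 to 4 and 432.3, 412.9, 230.8 and 155.8 CPM in Control replicates 1 to 4. AD1 OE replicate 3 was thus the highest of all 8 libraries, 3.93-fold above the mean of the other AD1 OE libraries. Control replicates 1 and 2 had more than replicate 4, while their Chodl levels were 39.3 and 45.6 CPM against 39.4 CPM. Of the 8 muscle genes, 0 passed the test between the groups in edgeR or DESeq2 (2.57% of all tested genes passed in edgeR). At an unadjusted p under 0.05 there were 0 (18.6% of all tested genes), and nothing is read from these counts. With the muscle level as a covariate the log2 fold change of Chodl was -3.51. Whether muscle RNA contributed to the Chodl level of AD1 OE replicate 3 was not tested.

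**Figure D2:**
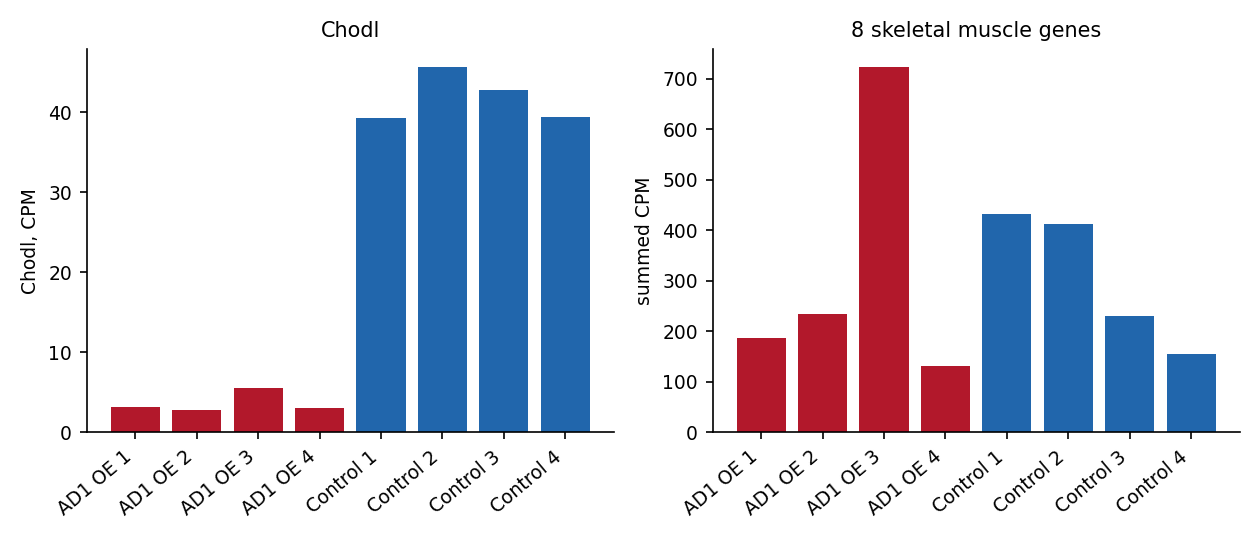
Chodl level in CPM (left) and the summed CPM of 8 skeletal muscle genes (right) in each of the 8 libraries, with bars from 0; red is AD1 OE and blue is Control. AD1 OE replicate 3 was highest in its group in both, at 5.55 CPM of Chodl and 722.7 CPM of the muscle genes.

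Motor neurons also transcribe Chodl, and 2 of 7 motor neuron genes had enough counts for the test. These were Slc5a7, at 14.2 to 15.6 CPM in AD1 OE and 13.2 to 16.5 CPM in Control, and Mmp9, at 3.79 to 46.2 CPM and 4.11 to 34.3 CPM. Slc18a3 reached 1.57 CPM in Control replicate 1. Chat, the acetylcholine-synthesising enzyme, stayed at or below 0.45 CPM in every library, and Mnx1, a motor neuron transcription factor, at or below 0.18 CPM. The summed level of 7 motor neuron genes was 20.7, 19.1, 37.2 and 61.1 CPM in AD1 OE and 24.2, 35.1 and 48.5 CPM in Control replicates 1, 3 and 4, with replicate 2 lower, most of it from Slc5a7 and Mmp9. The ranges overlapped. Slc18a3, Lhx3 and Lhx4, the other motor neuron genes too low for the test, had lower means in AD1 OE than in Control, as did Chat and Mnx1. The summed level of 8 spinal cord genes was 2.49, 2.23, 5.09 and 3.31 CPM in AD1 OE and 14.1, 2.37, 3.93 and 8.92 CPM in Control replicates 1 to 4, with a median log2 fold change of -1.22 over the 6 tested, against 0.002 over all tested genes. Like Chodl, the spinal cord genes and the motor neuron genes too low for the test thus lay lower in AD1 OE on balance. The tested motor neuron genes did not, with log2 fold changes of 0.04 (Slc5a7) and 0.25 (Mmp9, SE 0.76). The spinal cord sums of the groups overlapped, and the part of spinal cord RNA in the Chodl difference was not tested. Control replicate 2, the lowest Control library in the spinal cord sum, had the highest Chodl level, 45.6 CPM. Sums of 5 glial genes were 807.3 to 1044.0 CPM and 843.2 to 1055.0 CPM in AD1 OE and Control, and those of 4 endothelial genes 235.1 to 280.6 CPM and 241.9 to 252.6 CPM. Of the motor neuron (2 tested), spinal cord (6 tested), glial (5 tested) and endothelial (4 tested) genes, 0 passed the test by edgeR or DESeq2. By edgeR, 2.57% of all tested genes passed. An unadjusted p under 0.05 was reached by 0, 1, 1 and 0 of these genes (18.6% of all tested genes).

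AD1 OE replicate 3 did not have a weaker decrease over the other genes that were lower in AD1 OE. The 315 such genes without Chodl had a median log2 level of -0.57, -0.56, -0.61 and -0.57 relative to the Control mean in AD1 OE replicates 1 to 4. Replicate 3 was the highest AD1 OE library for 66 of them, and replicate 4 for 101 (32.1%). The 139 genes that were higher had medians of 0.50, 0.46, 0.46 and 0.48. Since these genes were selected on the same contrast, these values are a description. The level of Dach1 itself in replicate 3, 98.3 CPM, lay within the range of the other AD1 OE libraries, 91.5 to 102.2 CPM.

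Among the genes of at least 1 mean CPM, the 10 that followed Chodl had log2 fold changes from -3.39 to -2.13. The nearest was T, the gene of the notochord transcription factor brachyury, at -3.39 (SE 0.77, edgeR adjusted p = 0.021), which did not pass the test. Its levels in Control replicates 1 to 4 were 0.315, 18.6, 19.2 and 10.1 CPM against 0.356 to 1.84 CPM in AD1 OE. T was thus high in 3 Control libraries and lowest of all 8 libraries in Control replicate 1, and its groups overlapped. Krt8, a keratin of simple epithelia (-2.78, SE 0.65), and Acan, the cartilage proteoglycan aggrecan (-2.32, SE 0.54), had the same shape, with 0.270 and 4.23 CPM in Control replicate 1 against 3.98 to 7.55 CPM and 35.7 to 57.8 CPM in the other Control libraries, and neither passed (adjusted p = 0.023 each). Chodl did not share it, with 39.3 CPM in Control replicate 1.

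**Figure D3:**
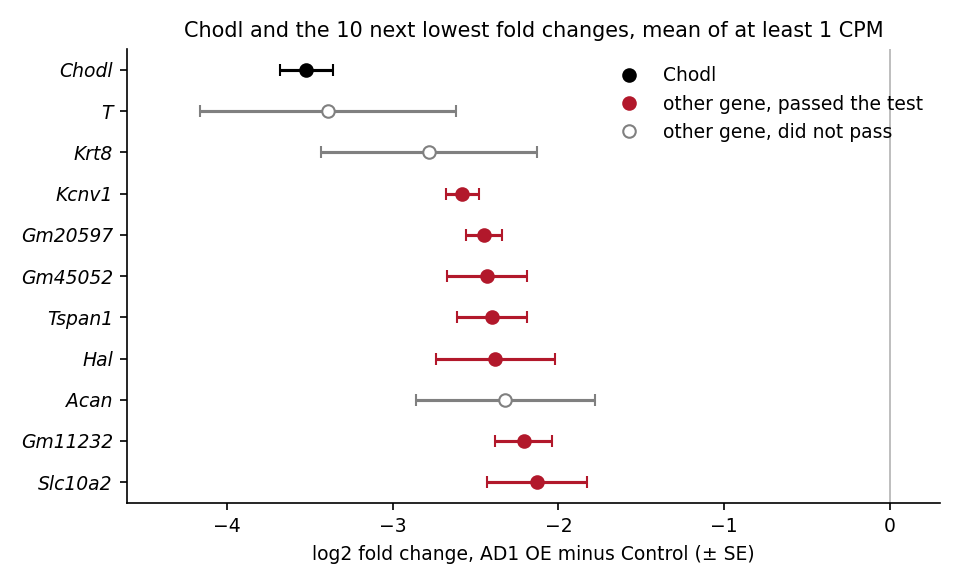
Fitted log2 fold change (AD1 OE minus Control) with its SE for Chodl and the 10 next lowest genes of at least 1 mean CPM; red points passed an adjusted p under 0.005 and open points did not. Chodl stood at -3.52, and T, Krt8 and Acan, with the widest errors, did not pass.

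The first gene after Chodl with groups that did not overlap was Kcnv1, which encodes a modifier subunit of voltage-gated potassium channels. Its levels were 7.78, 5.21, 7.50 and 8.17 CPM in AD1 OE and 40.9, 45.7, 43.4 and 43.3 CPM in Control (log2 fold change -2.58, SE 0.10, adjusted p = 9.8e-08). In the same Control libraries Chodl had 39.3 to 45.6 CPM, and the remainder in AD1 OE was 7.16 CPM for Kcnv1 and 3.67 CPM for Chodl (means, CPM not corrected for length). Tspan1, a tetraspanin, had 0.927, 0.668, 1.22 and 0.504 CPM in AD1 OE and 4.72, 4.58, 3.81 and 4.60 CPM in Control (-2.40, SE 0.21), and with Chodl and T it was highest in replicate 3 among the AD1 OE libraries. Hal, which encodes histidine ammonia-lyase (-2.38, SE 0.36), and Slc10a2, a bile acid transporter gene (-2.13, SE 0.30), had their lowest level in that library, 0.0765 CPM and 0.191 CPM. Hal passed in 11 and Slc10a2 in 15 of 16 alternative fits. The predicted genes Gm20597 (-2.45), Gm45052 (-2.43) and Gm11232 (-2.21) also passed.

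Below 1 mean CPM, 1 gene had a lower fitted fold change than Chodl and the next lay just above it. Mrgpra3, a receptor gene of itch neurons from a family of closely similar genes that counting may divide, had 2, 0, 0 and 1 counts in AD1 OE and 15, 27, 20 and 37 in Control. With AD1 OE at the floor of 3 counts per library, it was at least 7.89-fold lower in AD1 OE. Ambn, the gene of the enamel protein ameloblastin, had 3, 1, 0 and 3 counts against 13, 19, 14 and 22, and was at least 5.54-fold lower. For Chodl, with 64 to 145 counts in AD1 OE, the ratio of 11.4 is a measured value and not such a bound.

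Most other genes of proteins with a C-type lectin domain did not pass the test. Of 50 genes listed, 48 were matched and 36 were tested. Of these, 1 passed as lower and 1 as higher (5.56%, against 2.57% of all tested genes), and 12 had an unadjusted p under 0.05, which 18.6% of all tested genes had. DESeq2 called 3. Their median log2 fold change was -0.01, against 0.002 over all tested genes.

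The lower one was Layn, which encodes layilin, a membrane protein that binds hyaluronan and is close in sequence to chondrolectin. Layn had 2.83, 3.30, 3.06 and 3.13 CPM in AD1 OE and 8.23, 8.22, 8.49 and 8.11 CPM in Control. Its groups did not overlap, and its log2 fold change was -1.43 (SE 0.08, adjusted p = 1.6e-06). AD1 OE retained 37.3% of the Control mean for Layn, and AD1 OE replicate 3, which was highest for Chodl, was not so for Layn. The higher one was Reg3b, a secreted lectin of the Reg family, with 6.48 to 7.84 CPM in AD1 OE and 2.68 to 3.46 CPM in Control (1.36, SE 0.11, adjusted p = 1.6e-05). Reg3b has close copies, among which counting may divide reads.

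**Figure D4:**
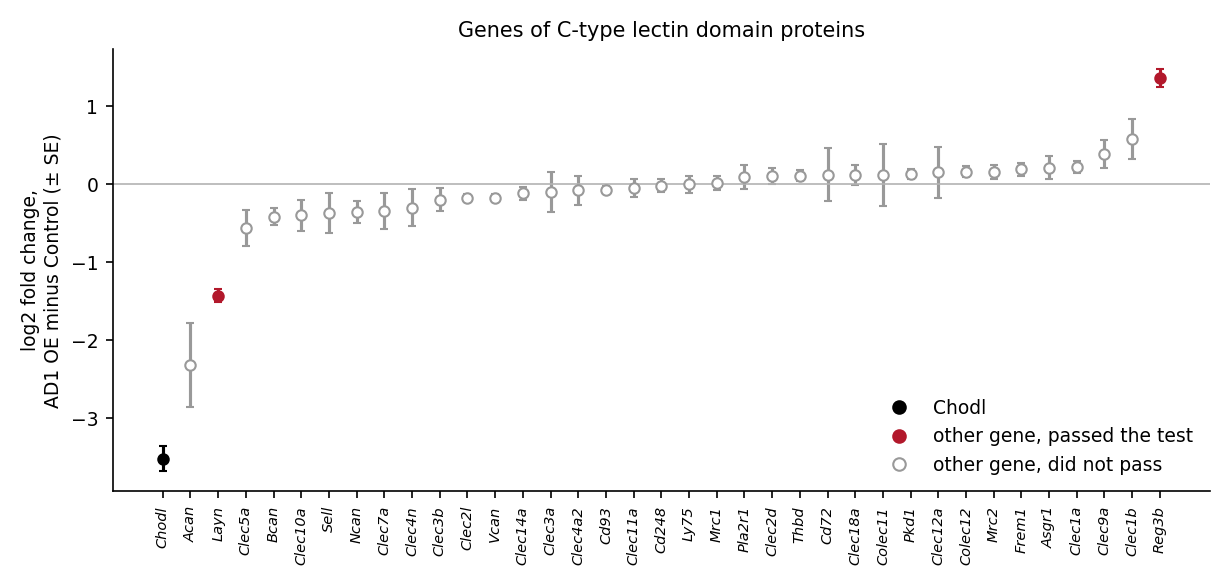
Fitted log2 fold change (AD1 OE minus Control) with its SE for Chodl and the 36 other tested genes of C-type lectin domain proteins, in ascending order; filled points passed the test. Apart from Chodl at -3.52, Layn at -1.43 and Reg3b at 1.36, the genes that passed, the members ranged from -2.32 (Acan) to 0.58.

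The 4 most abundant lectin domain genes that did not pass were Pkd1 (log2 fold change 0.13), Thbd (0.11), Vcan (-0.18) and Ncan (-0.36), which encode polycystin-1, thrombomodulin and the proteoglycans versican and neurocan. Acan, a member of the same list, passed when Control replicate 1 was left out. Rabggta, which encodes a described binding partner of chondrolectin, Col19a1, a collagen gene linked with it in motor axon growth, and Smn1, the mouse survival motor neuron gene, had log2 fold changes of 0.01, 0.04 and -0.06. Of these 3 genes, 0 passed in edgeR or DESeq2 (2.57% of all tested genes passed in edgeR). At an unadjusted p under 0.05 there were 0 (18.6% of all tested genes), and with 3 genes nothing is read from these counts. Rabggta, for example, lay at 42.0 to 47.6 CPM in AD1 OE and at 42.6 to 47.8 CPM in Control.

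Of 12 proprioceptor genes, 1 passed (8.33%, against 2.57% of all tested genes), and 7 had an unadjusted p under 0.05 (18.6% of all tested genes). This was Etv1, a transcription factor gene needed for muscle afferents, at 93.2, 104.1, 81.7 and 91.2 CPM in AD1 OE and 162.9, 179.3, 184.2 and 197.0 CPM in Control (log2 fold change -0.97, SE 0.07, adjusted p = 6.4e-06). Unlike Chodl, Etv1 was lowest in replicate 3 among the AD1 OE libraries. Of the members that did not pass, Ntrk3, the neurotrophin-3 receptor gene, stood at 0.30, Pvalb, the gene of parvalbumin, at -0.08, Heg1 at 0.12 and Spp1 at 0.66. For Spp1 the SE was 0.68, and its levels spread over 13.0 to 121.7 CPM in AD1 OE and 15.2 to 82.2 CPM in Control. DESeq2 called 3 of the 12, adding Ntrk3 and Whrn (-0.31, named after its values were seen). The summed level of the 12 genes was 720.2 to 820.7 CPM in AD1 OE and 702.4 to 838.0 CPM in Control. These ranges overlapped, and they add members that were higher to members that were lower, such as Ntrk3 and Etv1.

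Of 12 A-LTMR genes, 3 passed as lower and 1 as higher (33.3%, against 2.57% of all tested genes), with a median log2 fold change of 0.02. An unadjusted p under 0.05 was reached by 8 of them (18.6% of all tested genes), and DESeq2 called 5. Some of these genes were chosen by the study as its subtype markers. After loss of Dach1 the study reported Chodl, which is not in this list, as higher. It also reported Mafa and Mef2c as changed in the comparison used here, and Calb2, Mef2c and Shox2 as changed after loss of Dach1. The count of this list is thus not independent evidence. Mafa, a transcription factor gene of Ret-positive mechanoreceptors, had 3.28, 2.41, 4.36 and 2.66 CPM in AD1 OE and 11.5, 10.9, 8.33 and 8.39 CPM in Control (-1.61, SE 0.17, adjusted p = 0.00013). As for Chodl, AD1 OE replicate 3 was the highest of its group, and the groups did not overlap. Gfra2, a co-receptor gene for neurturin, had 59.7, 55.8, 70.0 and 56.4 CPM in AD1 OE against 85.9 to 97.4 CPM in Control (-0.58, SE 0.07, adjusted p = 0.00023), again with replicate 3 highest. Shox2, a homeobox gene of TrkB neurons, had 6.69 ± 0.627 CPM against 12.1 ± 0.962 CPM (SD, n = 4 each, log2 fold change -0.86, SE 0.09), and was lowest in replicate 3.

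Mef2c, a transcription factor gene, was the higher member, at 100.7 to 109.5 CPM in AD1 OE and 70.3 to 83.4 CPM in Control (0.38, SE 0.05, adjusted p = 0.001). Ret, Ntrk2, Maf and Necab2, the most abundant members that did not pass, had log2 fold changes of -0.12, 0.12, -0.04 and 0.08. The summed level of the 12 genes was 1178.1 to 1208.8 CPM in AD1 OE and 1205.7 to 1337.7 CPM in Control. Of the AD1 OE libraries only replicate 3 reached the Control range of this sum, and only just, at 1208.8 CPM against 1205.7 CPM. AD1 OE replicate 1 lay close by at 1199.9 CPM. Ret made up the largest share of the sum and was lowest in replicate 3 among the AD1 OE libraries, at 661.3 CPM. Of 8 cartilage genes, 1 passed (12.5%, against 2.57% of all tested genes) and 3 had an unadjusted p under 0.05 (18.6% of all tested genes). The gene that passed was Hapln1, a link protein gene (-0.87, SE 0.13, adjusted p = 0.0014), which passed in 11 of 16 alternative fits. Within Control it was lowest in replicate 1, as Acan was, at 15.0 CPM against 18.6 to 24.2 CPM, with 10.4 to 12.0 CPM in AD1 OE.

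Few of the genes around Chodl on chromosome 16 had enough counts to be tested. Of the 20 nearest annotated genes, 10 on each side, 18 were matched. Of these, 4, all on the left, were tested and 0 passed in edgeR or DESeq2 (2.57% of all tested genes passed in edgeR). An unadjusted p under 0.05 was reached by 2 of them (18.6% of all tested genes), and log2 fold changes ran from -0.03 to 0.31. The nearest tested gene on the left was D16Ertd472e, 354240 bases away, with 6.85, 7.17, 6.66 and 6.84 CPM in AD1 OE and 5.76, 6.10, 6.13 and 6.13 CPM in Control (log2 fold change 0.19, SE 0.07, adjusted p = 0.19). It lay somewhat higher in AD1 OE in each library, opposite in direction to Chodl. Groups did not overlap, in either direction, for 13.0% of all tested genes. On the right 0 genes were tested. There the nearest was Tmprss15, the gene of enteropeptidase, named after its values were seen, which lies on the opposite strand and ends 1275 bases beyond Chodl in GRCm38. Tmprss15 had 0, 0, 1 and 0 counts in AD1 OE replicates 1 to 4 and 3, 3, 6 and 5 counts in Control. It was thus lower in every AD1 OE library than in any Control library, at counts too low for the test. Of all tested genes 7.26% were lower in this way, and nothing is read from Tmprss15 being so.

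Within the groups, transcripts were ranked by how closely they followed Chodl from library to library. Likeness was the Pearson correlation between deviations of log2 CPM from the group means over the 8 libraries, which leaves 6 degrees of freedom. It is a description of libraries that share depth, tissue and sex differences, and no p is given. Of the 15517 other genes, 108 (0.696%) had a correlation over 0.9 and 67 one below -0.9, and the median was 0.007. AD1 OE replicate 3 supplied 69.2% of the squared deviation of Chodl. A correlation over 0.9 with such a profile nearly requires a peak in this library, where all 108 genes had their highest AD1 OE level.

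The 6 most alike were Pigs (0.987), Zfp467 (0.982), Zfp707 (0.976), Gpr182 (0.974), Myh7b (0.974) and Osbp2 (0.970). They encode a subunit of the enzyme that attaches GPI anchors, a pair of zinc finger proteins, an atypical chemokine receptor of endothelium, a myosin heavy chain and an oxysterol-binding protein. Pigs had 58.7, 58.0, 65.4 and 58.1 CPM in AD1 OE and 63.2, 65.0, 65.2 and 63.1 CPM in Control. Its excess in AD1 OE replicate 3 was small beside that of Chodl, since a correlation compares shape and not size. Myh7b, with 3.82, 3.30, 8.11 and 4.14 CPM in AD1 OE and 3.19 to 4.27 CPM in Control, came nearest to Chodl in size. None of the 6 passed the test between the groups, and their log2 fold changes lay between -0.10 and 0.33.

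**Figure D5:**
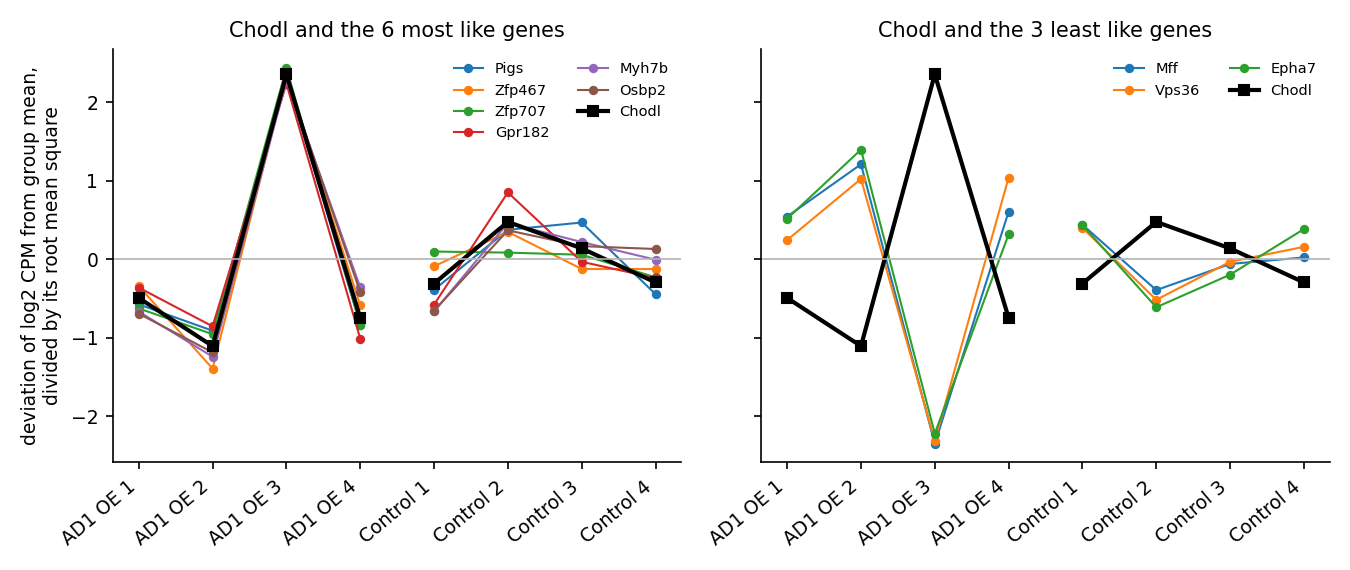
Deviation of log2 CPM from the group mean, divided by its root mean square, in each of the 8 libraries for Chodl with the 6 most alike genes (left) and with the 3 most opposed (right). Chodl and the 6 genes peaked in AD1 OE replicate 3, where the 3 opposed genes were lowest, a shape that their selection by correlation nearly fixed.

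The 3 most opposed were Mff (-0.991), Vps36 (-0.987) and Epha7 (-0.980), which encode a mitochondrial fission factor, a subunit of the ESCRT-II sorting complex and an ephrin receptor. Mff had 153.9, 157.4, 139.8 and 154.3 CPM in AD1 OE and 154.8 to 159.2 CPM in Control, and AD1 OE replicate 3 was the lowest of all 8 libraries. Without AD1 OE replicate 3 the correlations of the 6 genes with Chodl were 0.666 to 0.861. Only 7 of the 108 genes then remained over 0.9, of 78 genes over 0.9 in all. For Mff, Vps36 and Epha7 they were -0.886, -0.882 and -0.923. Leaving out that library thus lowered the correlation of each of the 9 genes in size. Since these genes were selected as extremes with that library included, a decrease follows from the selection and nothing is read from it.

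Genes that differed between the groups were about as frequent among the transcripts most like Chodl as among all genes. Of the 108 over 0.9, 3 passed the test between the groups (2.78%, against 2.57% of all tested genes) and 2 of them were lower. Genes of the X and Y chromosomes made up 5 of the 108 (4.63%, against 3.38% of all genes compared). The 7 skeletal muscle genes of at least 1 mean CPM had correlations of 0.662 to 0.838 with Chodl, and of -0.07 to 0.432 without AD1 OE replicate 3. Within the groups Layn (-0.158), Dach1 (0.377) and Avil (0.262) followed Chodl little.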

How the data were processed

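Stranded mRNA libraries of E18.5 ganglia were sequenced by NovaSeq. Per the labels, the authors aligned reads to GRCm39 with STAR 2.7.8a and counted them per gene with featureCounts 2.0.1 (bcl2fastq 2.20.0.422 before it), and they deposited raw counts for 55414 Ensembl genes per library. Whether counting used the strand is not given in the sources used here. Symbols were found for 52081 genes.

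The test across genes was run in edgeR 4.0.16 under R 4.3.3 (filterByExpr, TMM, quasi-likelihood F test, Benjamini-Hochberg adjustment over 17721 genes), at the study's thresholds. The study used DESeq2, run here as an alternative (1.42.0). Levels are mean CPM and SD. The common biological coefficient of variation was 8.22%. Log2 CPM for likeness used a prior count of 2. Groups and replicate numbers came from the labels. Replicates differed beyond sampling noise. Deviations of same-numbered libraries of the groups correlated at -0.01, -0.11, -0.03 and 0.41 for replicates 1 to 4, and whether they are paired is not known.

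The gene, the lists, the rule for named genes and the motif were chosen with earlier results of these data known. The rule took the 10 lowest fold changes after Chodl and 2 below 1 CPM, the 6 most and 3 least alike genes, the nearest tested neighbours, and of each list those that passed and up to 4 abundant others. Of the lists, 2 entries had no ID. In simulated data, 189 of 200 changed genes among 17568 were recovered with 1 false call. The simulation gave all genes the same dispersion and put no sex or tissue differences between libraries. It thus checks that the code runs as intended, and its values are not error rates of the real comparison.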

Additional observations from a re-analysis of the deposited data

Results flagged for a closer look

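In a group of 4 libraries, a library was picked out where its gap to the nearest of the others was a larger share of the group's range than Dixon's 95% limit, which chance passes in about 1 of 20 groups. The screen covered 38 of the genes named, with Chodl and genes selected for following it among them. The chance rate thus does not apply to their count. Of their 76 groups, 13 passed. Chodl did so in AD1 OE (0.867), where replicate 3 had 5.55 CPM and the others 2.85 to 3.21 CPM. So did Pigs (0.902) and Zfp707 (0.911), which were selected for following Chodl, and the muscle genes Ckm (0.883), Actc1 (0.872), Myh8 (0.949) and Mylpf (0.844), all highest in the same AD1 OE replicate 3. The others were Tspan1 in Control replicate 3 (0.840), Mef2c in Control replicate 1 (0.905), Reg3b in AD1 OE replicate 4 (0.854) and Control replicate 3 (0.886), Zfp467 in Control replicate 2 (0.913) and Zfp707 in Control replicate 4 (0.889). Among these, Reg3b had 3.46 CPM in Control replicate 3 against 2.68 to 2.77 CPM, Tspan1 3.81 against 4.58 to 4.72 CPM, Mef2c 70.3 against 82.2 to 83.4 CPM and Zfp707 11.5 against 11.6 to 11.7 CPM. The ratios are descriptions and the causes were not tested.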

How the results depend on the processing

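Over all 16 alternatives the log2 fold change of Chodl stayed between -3.76 and -3.37. Leaving out 1 library at a time gave -3.76 (without AD1 OE replicate 3) to -3.43. The replicate number as a block gave -3.53. Deviations correlated at -0.11 to 0.41 between same-numbered and at -0.45 to 0.30 between differently numbered libraries. These values do not settle whether the numbers pair the libraries. With the block 348 genes passed (244 lower, 104 higher), and the counts of the lists stayed as they were. The count of genes that passed was 747 without an expression filter, 1161 at an adjusted p under 0.05 and any fold, 129 at that p and an absolute log2 fold change over 1, and 289 (without AD1 OE replicate 1) to 420 with 1 library left out.

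Lectin domain genes numbered 5 without the filter, 6 at 0.05 and 2 to 3 with a library left out. Proprioceptor genes numbered 3 in DESeq2, 3 without the filter, 2 with sex, 2 with the muscle level (added after seeing the data), 5 at 0.05, 0 at 0.05 with the fold over 1, and 1 to 2 (2 without AD1 OE replicate 3, where Ntrk3 passed). A-LTMR genes numbered 1 at 0.05 with the fold over 1. Hal and Hapln1 lost their call in 5 fits each, and Mef2c and Slc10a2 in 1 each. Of the 6 genes most like Chodl, 1 stayed among the first 6 with group and sex means removed, and 0 to 3 with a library left out (0 without AD1 OE replicate 3). The ratio of AD1 OE replicate 3 to the others ran from 1.77 to 1.88. The median response of lower genes in replicate 3 against the other AD1 OE libraries was -0.04, and 0.001 for genes selected without it. The causes of these changes were not tested. Depth sets a floor of 0.0678 to 0.134 CPM in AD1 OE.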
